A study of Mus musculus domesticus with 18 samples.

Results

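The genes described here encode nuclear subunits of the mitochondrial oxidative phosphorylation system, grouped by complex. Of 54 gene symbols drawn up for complexes I to V, 52 had a probe set listing that gene alone, out of 18193 named genes on the array. These were 25 genes of complex I, 4 of complex II, 7 of complex III, 9 of complex IV and 7 of complex V. Where a gene had several such probe sets, the one with the highest mean over all 18 arrays stood for it. Ndufs6 was present only on a probe set that listed another gene as well, and Cox7b was on none of the probe sets named here, so neither was analysed. The array annotation listed 6 ATP synthase genes under older symbols, Atp5f1a as Atp5a1, Atp5f1b as Atp5b, Atp5f1c as Atp5c1, Atp5po as Atp5o, Atp5pd as Atp5h and Atp5me as Atp5k.

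The livers were those of 18 wild-trapped males of the house mouse Mus musculus domesticus, for which the labels name no engineered allele and no treatment. The high altitude group held 9 mice from La Paz, Bolivia, at 3600 m, and the low altitude group 9 mice from Lima, Peru, at 100 m. Each group came from 3 trapping locations, A, B and C, with 3 mice each, and a mouse is named by altitude, letter and number (high A4). The labels also give the strain C57BL/6J, which is a laboratory strain and does not describe trapped mice, and no ages were given. Altitude coincided with city and with mouse population, so their effects cannot be told apart.

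In oxidative phosphorylation, electrons from NADH enter the inner mitochondrial membrane at complex I and those from succinate at complex II. They pass through ubiquinone to complex III, through cytochrome c to complex IV and there to oxygen, while complexes I, III and IV pump protons that complex V, the ATP synthase, uses to make ATP. Most subunits are encoded in the nucleus and a few in mitochondrial DNA, and in the liver the system powers glucose synthesis and urea synthesis.

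Levels are log2 values made by robust multi-array averaging (RMA), in which a step of 1 is a doubling of signal, and they can be compared between mice for a gene but not between genes. A difference is the high altitude mean minus the low altitude mean on this scale. Arrays correlated between 0.974 and 0.994 over all named genes, and the number of arrays limits the precision: the median standard error of a difference was 0.074 over the 52 genes and 0.087 over all genes. The probe sets of Ndufb4 and Cox7c lay below the median gene level of 6.31, where RMA compresses differences, and those of the other 50 genes lay above it. The first question was whether livers of mice living at high altitude differed in the transcripts of the respiratory chain.

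Most subunit transcripts had a small negative difference, in every complex, and for all but 1 gene it did not pass the test. The difference was negative for 45 of the 52 genes (86.5%), against 48.4% of all genes, and its median was -0.078, a ratio of 0.947, against a median of 0.0044 over all genes. By complex, the median difference was -0.079 for complex I with 20 of 25 genes negative, -0.089 for complex II with 4 of 4, -0.068 for complex III with 6 of 7, -0.074 for complex IV with 8 of 9, and -0.097 for complex V with 7 of 7. These 5 medians ran from -0.097 to -0.068, and complexes were not tested against each other. Ndufb5 of complex I was the subunit that passed and fell at high altitude, at a limma adjusted p of 0.0437 over all named genes. That is 1 of 52 genes, where 0.363% of all genes passed in either direction and 0.137% passed as lower at high altitude. At an unadjusted p under 0.05 stood 5 of the 52 genes, 4 lower and 1 higher, close to the 11.5% of all genes at that level. Because these are whole pieces of liver, fewer cells of a type and less RNA per cell cannot be told apart.

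**Figure D1:**
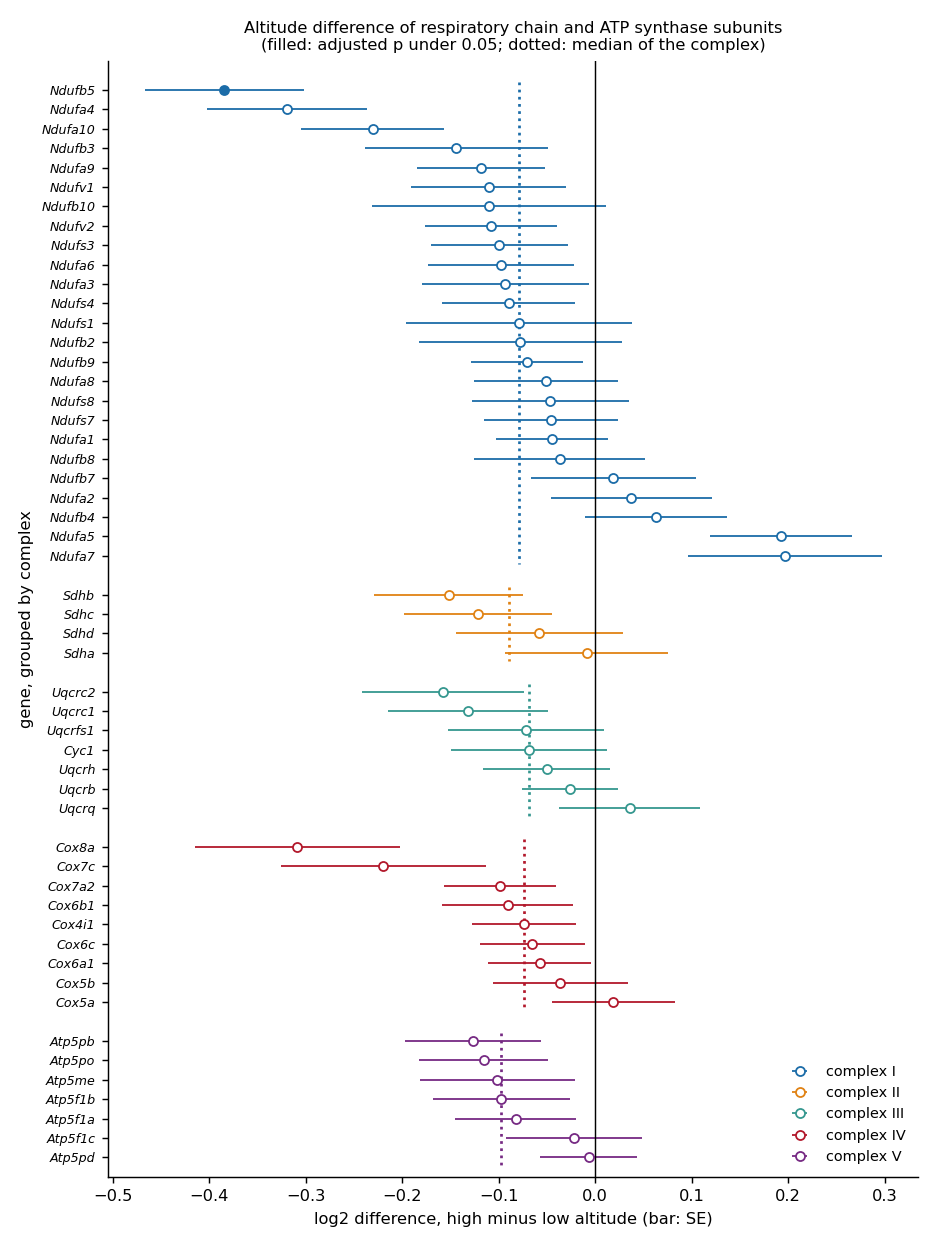
Log2 difference between high and low altitude livers (horizontal axis, high minus low, bars give the standard error, n = 9 mice each) for 52 subunit genes, sorted within complexes I to V. Most points lie left of 0 and the complex medians (dotted) lie between -0.097 and -0.068, but Ndufb5 alone is filled as past the adjusted p of 0.05.

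Counts over genes of similar signal are given beside these. Of the 52 genes, 37 had a mean level from 11 to 13. All 626 named genes in that range, these 37 among them, had a median difference of -0.040 with 61.2% negative. Genes of this brightness as a whole thus had more negative than positive differences. The amount was smaller than the median of -0.078 over all 52 subunits, and no median was taken over the 37 alone. The 1998 genes from 9 to 11 had a median of -0.016 with 54.6% negative, and the 111 genes from 13 to 15 had a median of -0.0035 with 52.3% negative. The subunit genes varied little between mice, with a median standard deviation within a location of 0.14, against 0.18 over all genes. Atp5pd varied least at 0.051 and Cox8a most at 0.26.

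The separation of the groups was also read without a model. In 7 of the 52 genes all 3 high altitude location means lay below all 3 low altitude location means, namely Ndufb5, Ndufa4, Ndufa10, Ndufa3, Cox8a, Cox7c and Cox6c, and 7.04% of all genes showed that order. In 1 gene, Ndufa5, the high altitude location means all lay above, as they did in 7.55% of all genes. In 0 of the 52 genes did the 9 high altitude mice separate completely from the 9 low altitude mice, which 0.115% of all genes did.

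Complex I takes electrons from NADH in a matrix arm and pumps protons in a membrane arm. The matrix arm holds the flavin and iron-sulphur clusters along which electrons travel. Its 6 measured core subunits were Ndufv1, Ndufv2, Ndufs1, Ndufs3, Ndufs7 and Ndufs8. All 6 had negative differences, from -0.11 to -0.046 with a median of -0.089, and limma called 0 of them, with 0 at an unadjusted p under 0.05. The 6 accessory subunits of the matrix arm were split, 3 negative and 3 positive, with a median of -0.026. Of the 12 accessory subunits of the membrane arm, 10 were negative, with a median of -0.074. Ndufa4, first purified with complex I and now placed in complex IV in mammals, is kept here where its symbol puts it.

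Ndufb5, an accessory subunit of the membrane arm, had levels of 11.21, 11.45 and 11.87 (lowest, median and highest) in high altitude livers, against 11.65, 11.81 and 12.01 in low altitude livers. The group means were 11.43 ± 0.21 at high altitude and 11.82 ± 0.11 at low altitude (SD, n = 9 each), a difference of -0.38 ± 0.083 (SE) or 0.766-fold. Below the lowest low altitude mouse lay 8 high altitude mice, and the ninth, high C2, lay among the low altitude mice, above the next high altitude mouse at 11.53. Location means were 11.32, 11.37 and 11.61 for high A, B and C, against 11.89, 11.79 and 11.77 for low A, B and C. The difference was negative under all 38 alternative settings, but the adjusted p passed 0.05 in 11 of them and ranged from 0.0104 to 0.412. With 1 mean per location in place of single mice, the limma adjusted p was 0.383. Leaving out mouse high C2 or low C1 kept the call, at adjusted p of 0.0104 and 0.0467, and leaving out any other single mouse ended it, at values from 0.0514 to 0.114. A second probe set for Ndufb5 had a difference of -0.17 ± 0.071 (SE), with a limma adjusted p of 0.393 over all single-gene probe sets.

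Ndufa4 had levels of 11.42, 11.76 and 11.96 in high altitude livers, against 11.79, 12.00 and 12.27 in low altitude livers. All 9 mice from high altitude were under the mean of the low altitude group, 6 of them under its lowest mouse, and the groups overlapped. Its difference was -0.32 ± 0.083 (SE), 0.802-fold, with an adjusted p of 0.102. Ndufa10, an accessory membrane arm subunit related to nucleoside kinases, had levels of 10.92, 11.15 and 11.24 at high altitude, against 11.14, 11.40 and 11.51 at low altitude. Its 9 high altitude mice were likewise under the mean of the low altitude group, and its difference was -0.23 ± 0.074 (SE, adjusted p = 0.177). The second probe set of Ndufa10 gave a smaller difference of -0.048 ± 0.11 (SE). It was much dimmer, at a mean level of 6.78 against 11.22 for the first. Ndufa4 had 1 single-gene probe set.

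Of the 5 positive differences in complex I, those of 2 accessory subunits of the matrix arm, Ndufa5 and Ndufa7, were the largest. The other 3 were 0.063 for Ndufb4, 0.038 for Ndufa2 and 0.019 for Ndufb7. Ndufa5 had levels of 10.80, 11.20 and 11.33 in high altitude livers, against 10.75, 10.94 and 11.12 in low altitude livers. Of 9 mice from high altitude, 8 were over the mean of the low altitude group, and the exception, in location A, was close to the lowest low altitude mouse. The difference of Ndufa5 was 0.19 ± 0.074 (SE, adjusted p = 0.284), and 0.082 ± 0.090 in its second probe set. Ndufa7, the most positive of the complex I genes, had levels of 11.77, 12.17 and 12.59 at high altitude, against 11.66, 12.01 and 12.20 at low altitude. The groups overlapped widely, and the difference was 0.20 ± 0.10 (SE, adjusted p = 0.474). Of the other 4 single-gene probe sets of Ndufa7, 3 gave differences of 0.23, 0.088 and 0.14 and the dimmest gave -0.19.

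The next smallest p in complex I belonged to 3 further genes. Ndufa9, which sits near the ubiquinone site, averaged 11.13 ± 0.11 at high altitude and 11.25 ± 0.13 at low altitude, a difference of -0.12 (adjusted p = 0.527). Ndufv2, which holds an iron-sulphur cluster next to the flavin subunit Ndufv1, averaged 11.64 ± 0.15 at high altitude and 11.74 ± 0.10 at low altitude, a difference of -0.11 (adjusted p = 0.589). Ndufb3, a small membrane arm subunit, averaged 10.49 ± 0.22 at high altitude and 10.64 ± 0.16 at low altitude, a difference of -0.14 (adjusted p = 0.612). All of these standard deviations are over n = 9 mice per altitude. The other 17 complex I genes had differences from -0.11 to 0.063 and adjusted p of at least 0.655. Among these were Ndufb10 at -0.11 ± 0.12 (SE), whose standard error was the largest of the complex, and Ndufs1, the largest core subunit, at -0.079 ± 0.12.

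**Figure D2:**
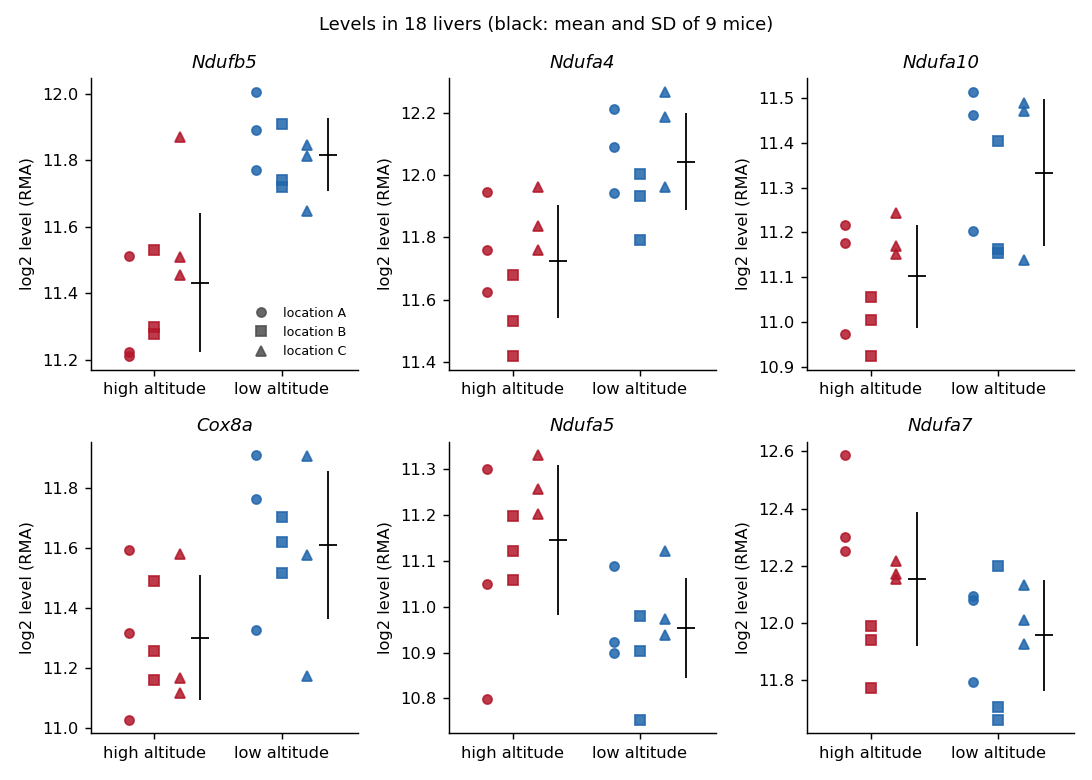
RMA log2 levels (vertical axes, each with its own range) of 6 subunit genes in each mouse, high altitude left and low altitude right, with marker shapes for locations A, B and C and black bars for the mean and SD of 9 mice. In Ndufb5 the mouse high C2 lies at 11.87 among the low altitude mice, and in every panel the groups overlap.

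Complex II, succinate dehydrogenase, is shared with the tricarboxylic acid cycle and is made wholly from nuclear genes. Its 4 genes had negative differences, and limma called 0 of them, with 0 at an unadjusted p under 0.05. Sdhb, the iron-sulphur subunit, had levels of 11.88, 12.08 and 12.20 in high altitude livers, against 11.93, 12.21 and 12.49 in low altitude livers. All 9 mice from high altitude were under the mean of the low altitude group but 1 under its lowest mouse, and the difference was -0.15 ± 0.077 (SE, adjusted p = 0.472). Sdhc, a membrane anchor, averaged 10.83 ± 0.15 at high altitude and 10.95 ± 0.15 at low altitude, a difference of -0.12 (SD, n = 9 each, adjusted p = 0.591). Sdhd, the other anchor, had a difference of -0.058 (adjusted p = 0.880). Sdha, the flavin subunit that oxidises succinate, had a difference of -0.0088 ± 0.084 (SE, adjusted p = 0.984), and its sign turned under 14 of 38 alternatives. The complex II median of -0.089 was -0.058 with second probe sets, -0.047 with a covariate for RNA integrity and -0.055 without location high B.

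Complex III hands electrons from ubiquinol to cytochrome c. Its core proteins, Uqcrc2 and Uqcrc1, had its most negative differences. Uqcrc2 had levels of 10.94, 11.19 and 11.34 at high altitude, against 11.06, 11.29 and 11.61 at low altitude, a difference of -0.16 ± 0.084 (SE, adjusted p = 0.503). Uqcrc1 had levels of 10.84, 11.06 and 11.35 at high altitude, against 10.81, 11.22 and 11.38 at low altitude, a difference of -0.13 ± 0.083 (SE, adjusted p = 0.588). Both genes overlapped between altitudes, and the lowest Uqcrc1 value of all belonged to a low altitude mouse. The subunits that carry the redox centres, the Rieske protein Uqcrfs1 and cytochrome c1 (Cyc1), had differences of -0.071 and -0.068 (adjusted p = 0.824 and 0.834). Uqcrh and Uqcrb, small accessory subunits, had differences of -0.050 and -0.026. Uqcrq, another small subunit and the most positive member, had a difference of 0.036 ± 0.073 (SE, adjusted p = 0.923). Limma called 0 genes of complex III, with 0 at an unadjusted p under 0.05. With location high B left out, the complex III median was -0.0079 and Uqcrfs1 turned to 0.016, and with high C left out the median was -0.12.

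Complex IV, cytochrome c oxidase, passes electrons to oxygen, and the 9 genes here encode the nuclear subunits that surround its mitochondrially encoded core. Cox8a, a small membrane subunit in its widely expressed form, had levels of 11.03, 11.26 and 11.59 in high altitude livers, against 11.17, 11.62 and 11.91 in low altitude livers. All 9 mice from high altitude were under the mean of the low altitude group and 4 under its lowest mouse. The difference was -0.31 ± 0.11 (SE), 0.807-fold, with an adjusted p of 0.222. A second probe set of Cox8a had a difference of -0.34 ± 0.12 (SE), so both gave a similar size. Cox7c had levels of 3.78, 4.09 and 4.56 at high altitude, against 4.07, 4.32 and 4.84 at low altitude, on a dim probe set. Its difference of -0.22 ± 0.11 (SE, adjusted p = 0.443) was thus measured close to the floor of the array.

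The remaining complex IV genes differed less. Cox7a2, the form of subunit VIIa found in most tissues, averaged 13.22 ± 0.10 at high altitude and 13.31 ± 0.11 at low altitude, a difference of -0.099 (SD, n = 9 each, adjusted p = 0.551). Cox4i1, the common form of subunit IV, averaged 12.76 ± 0.09 at high altitude and 12.83 ± 0.09 at low altitude, a difference of -0.074 (SD, n = 9 each, adjusted p = 0.665). Cox6b1 and Cox6c had differences of -0.091 and -0.065 (adjusted p = 0.672 and 0.724), Cox6a1 of -0.058 and Cox5b of -0.036. Cox5a was the positive member at 0.019 ± 0.064 (SE, adjusted p = 0.957), with a sign that turned under 4 of 38 alternatives. Cox6a1 differed more in its second probe set, at -0.22 ± 0.080 (SE, adjusted p = 0.297). After a second quantile normalization the complex IV median of -0.074 was -0.047.

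Complex V consists of a catalytic head in the matrix, a stalk and a membrane rotor. Atp5pb, a subunit of the outer stalk, had levels of 12.04, 12.35 and 12.52 in high altitude livers, against 12.22, 12.46 and 12.61 in low altitude livers, a difference of -0.13 ± 0.071 (SE, adjusted p = 0.525). Atp5po, which joins the head to the stalk, had levels of 11.85, 11.98 and 12.09 at high altitude, against 11.92, 12.08 and 12.39 at low altitude. For Atp5po all 9 mice from high altitude were under the mean of the low altitude group, the ranges overlapped, and the difference was -0.12 ± 0.067 (SE, adjusted p = 0.549). The catalytic subunit Atp5f1b and its partner Atp5f1a had differences of -0.097 and -0.082 (adjusted p = 0.663 and 0.685), and the membrane subunit Atp5me of -0.10 (adjusted p = 0.702). Atp5f1c, the rotating central stalk, and Atp5pd, in the outer stalk, had differences of -0.022 and -0.0068, and the sign of Atp5pd turned under 13 of 38 alternatives. Limma called 0 genes of complex V, with 0 at an unadjusted p under 0.05. With location low C left out, the complex V median was -0.036, and it was -0.052 without high B and -0.15 without high C.

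The next question was how evenly these differences were spread over mice and locations. Each gene's level was set against its own mean over all 18 mice, and these deviations were averaged over the 52 genes in each mouse. The mean deviation in high altitude mice was -0.083, -0.12 and 0.044 in location A, -0.14, -0.10 and -0.062 in location B, and 0.021, 0.050 and 0.039 in location C. In low altitude mice it was 0.091, -0.077 and 0.068 in location A, -0.061, 0.089 and -0.0028 in location B, and -0.0071, 0.12 and 0.14 in location C. High A1 and A2 and all of high B were thus on the low side, high A4 and all of high C were slightly above 0, and 4 low altitude mice were below 0. The number of genes below their own mean ran from 17 to 45 of 52 over high altitude mice, with 34 to 45 in location B and 17 to 22 in location C. Over low altitude mice it ran from 7 to 38, with 7 to 26 in location C. The altitude groups overlapped, with ranges of -0.14 to 0.050 at high altitude and -0.077 to 0.14 at low altitude.

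The complexes were also read one by one. The mean level of complex IV lay below the low altitude average in 9 of 9 high altitude mice, that of complex II in 8, those of complexes III and V in 7 each and that of complex I in 6. Counted against the low altitude median in place of the mean, the numbers were 9 for complexes I and IV, 8 for complex II, 6 for complex III and 5 for complex V, so the order of the complexes depended on that choice. Complex IV means ran from 11.78 to 11.94 at high altitude and from 11.85 to 12.05 at low altitude, and averaged 11.84 ± 0.05 in the high and 11.94 ± 0.07 in the low altitude group (SD, n = 9 mice each). The mean difference of complex IV was -0.10 over its 9 genes and -0.058 over the 7 genes other than Cox8a and Cox7c. Leaving out location high B left 36 of the 52 genes negative and a median of -0.063. Leaving out location low C left 41 negative and a median of -0.051, and leaving out high C left 47 negative and a median of -0.12. Over all alternatives the number of negative genes stayed between 36 and 47 and the median between -0.12 and -0.051.

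**Figure D3:**
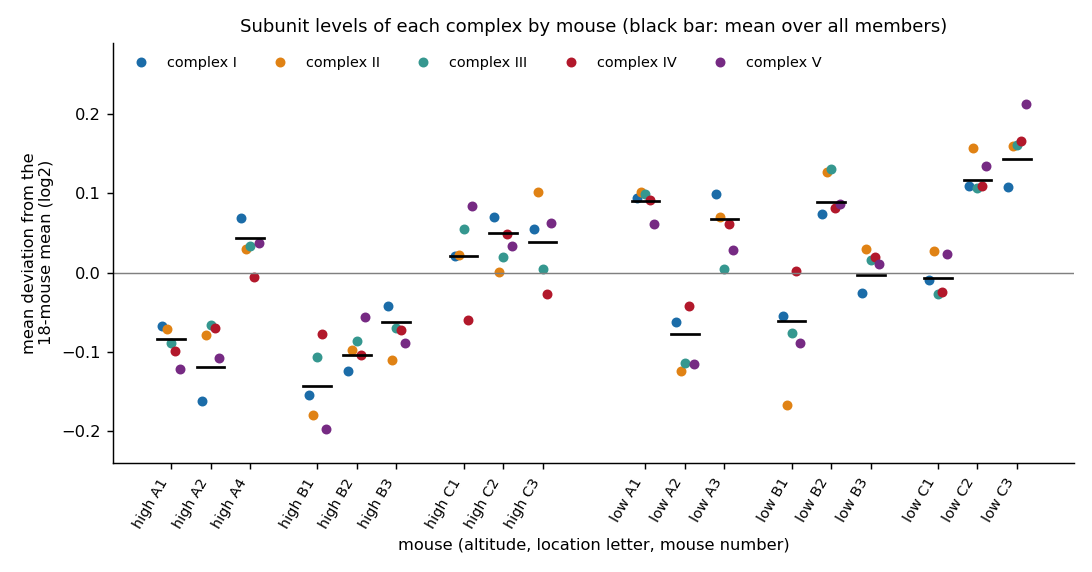
Mean deviation of the subunit genes of each complex from their 18-mouse means (vertical axis, log2) in each mouse, high altitude locations left and low altitude locations right, with black bars for the mean over all 52 genes. The 3 mice of high B lie between -0.14 and -0.062 and the 3 of high C between 0.021 and 0.050, while low altitude mice spread from -0.077 to 0.14.

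In the same data, a measure of RNA integrity stood apart in location high B. The difference between the 3 prime and 5 prime control probe sets of Actb, which grows as RNA degrades, was 1.40 ± 0.32 in high altitude livers and 1.21 ± 0.17 in low altitude livers (SD, n = 9 each). It averaged 1.70 in high B, 1.19 in high A and 1.30 in high C, against 1.18 to 1.26 in the low altitude locations. With this measure as a covariate, 41 of the 52 genes stayed negative with a median of -0.058, and Ndufb5 had a difference of -0.35 with an adjusted p of 0.0702.

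Locations of the same altitude were compared by limma's moderated F test. Of the 52 genes, 0 passed an adjusted p of 0.05 between the high altitude locations, where 0.302% of all genes did, and 0 between the low altitude locations, where 0.0715% of all genes did. At an unadjusted p under 0.05 there were 2 genes at high altitude and 1 at low altitude, against 8.91% and 6.68% of all genes. The 2 at high altitude were Ndufb10, a membrane arm subunit with location means of 10.70, 10.29 and 10.86 in A, B and C (adjusted p = 0.240), and Ndufa7 with 12.38, 11.90 and 12.18 (adjusted p = 0.371). Ndufa4 came next there, with 11.78, 11.54 and 11.85 (adjusted p = 0.588). In all 3 genes location B had the lowest mean. At low altitude the gene was Cox7a2, with means of 13.18, 13.36 and 13.40 in A, B and C (adjusted p = 0.740), followed by Ndufb10 (adjusted p = 0.747) and Atp5po (adjusted p = 0.754).

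Other probe sets of the same genes served as a further reading on the same arrays. A second single-gene probe set brighter than the median probe set (5.69) existed for 32 of the 52 genes. Of the 28 whose first probe set gave a negative difference, 24 were negative in the second, and of the 4 with a positive first difference, 3 were positive in the second. The median difference of the 32 genes was -0.074 in the first and -0.070 in the second. In 25 of the 32 the 2 estimates lay within 1 standard error of the second. Ndufb5, Ndufa10, Ndufa5, Ndufb7, Uqcrb, Cox6a1 and Cox7a2 were the 7 that lay farther apart, with Ndufb7 turning to -0.13 and Uqcrb standing at -0.16 in the second probe set. Of all 99 probe sets of these genes above that level, 80 had negative differences.

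**Figure D4:**
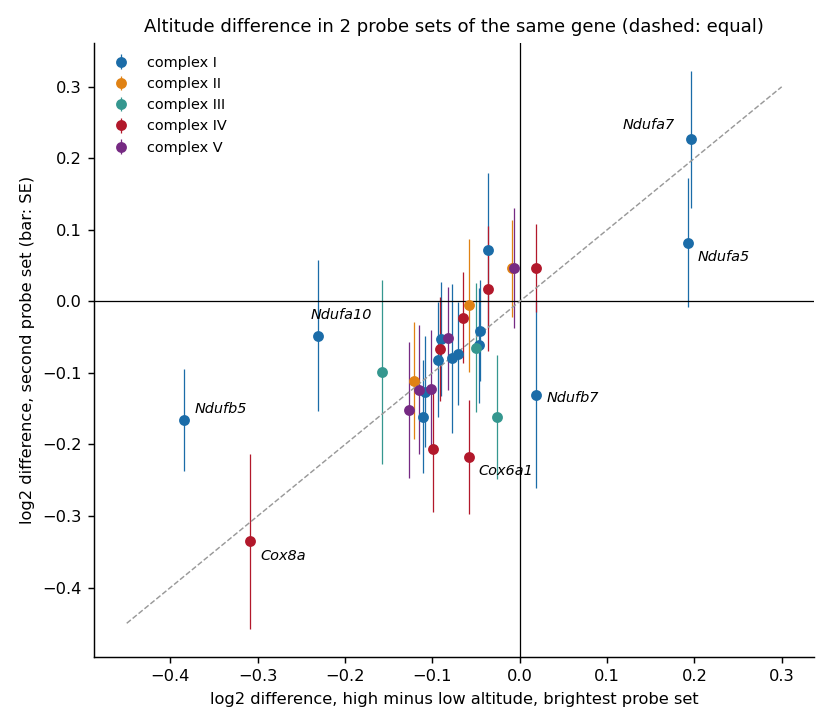
Log2 difference between high and low altitude in the brightest probe set (horizontal axis) and in the second probe set (vertical axis, bars give the standard error) of 32 subunit genes, coloured by complex. Of the 28 genes left of 0, 24 also lie below 0, Cox8a lies close to the line of equal values, and Ndufb5 lies above it.

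Related mitochondrial genes were then described by list. The counts at an unadjusted p under 0.05 in each list stand beside 11.5% of all genes at that level. Of 20 further subunits of the complexes, 17 were negative, the median difference was -0.075, and limma called 0, with 5 at an unadjusted p under 0.05. These held Ndufa12 of complex I at -0.21, Uqcr10 of complex III at -0.24, and the ATP synthase subunits Atp5j at -0.18 and Atp5l at -0.16 (adjusted p = 0.156, 0.177, 0.214 and 0.251). Ndufs5 of complex I was the exception among those with a small p, at 0.40 ± 0.15 (SE, adjusted p = 0.264). One mitochondrially encoded subunit had a named probe set of its own, the complex I core gene ND5. ND5 had levels of 13.22, 13.58 and 13.78 in high altitude livers, against 13.63, 13.78 and 13.88 in low altitude livers, a difference of -0.20 ± 0.071 (SE, adjusted p = 0.246). The 8 isoforms restricted to some tissues or linked to hypoxia were split 4 and 4 with a median of 0.0060, and limma called 0, with 0 at an unadjusted p under 0.05. Among them were Ndufa4l2 and Cox4i2, which cultured cells induce in low oxygen. Ndufa4l2 and Cox4i2 had differences of 0.074 and -0.033 (adjusted p = 0.695 and 0.938), both on probe sets below the median gene level.

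Genes that build and regulate the complexes gave the following counts. Of 44 assembly factors 31 were negative, with a median of -0.068, and limma called 0, with 8 at an unadjusted p under 0.05. Atpaf1, a chaperone for the catalytic head of ATP synthase, averaged 7.13 ± 0.30 in high altitude livers and 7.82 ± 0.38 in low altitude livers (SD, n = 9 each), a difference of -0.69 ± 0.15 (SE, adjusted p = 0.0557). Atpaf1 was called in 5 of 38 alternatives, 2 of which left out mouse high C1 (adjusted p = 0.0165) or low B1 (adjusted p = 0.00596). The complex I assembly factors Ndufaf2 and Timmdc1 had differences of -0.33 and -1.21, and the copper chaperone Cox17 of 0.33 (adjusted p = 0.140, 0.151 and 0.165). Of 23 regulators of mitochondrial gene expression, 15 were negative with a median of -0.099, and 0 were called, with 2 at an unadjusted p under 0.05. The coactivator Ppargc1a had levels of 7.16, 7.77 and 9.87 in high altitude livers, against 5.96, 7.58 and 8.19 in low altitude livers, with a difference of 0.71 ± 0.35 (SE, adjusted p = 0.452). Its relative Ppargc1b had a difference of 0.37, and Gabpb2 and Gabpb1, subunits of a transcription factor of respiratory genes, of -0.23 and -0.13 (adjusted p = 0.444, 0.384 and 0.392).

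Mostly negative differences were also found outside the respiratory complexes. Of 76 mitochondrial ribosomal protein genes, 64 were negative with a median of -0.092, and 0 were called. At an unadjusted p under 0.05 stood 22 of the 76, against 11.5% of all genes. Mrpl54, Mrpl36, Mrpl43 and Mrps6 had the smallest p of that list, with differences of -0.26, -0.30, -0.21 and -0.30 (adjusted p from 0.144 to 0.147). Of 28 carriers, porins and import genes, 22 were negative with a median of -0.096, led by Chchd3 of the cristae junctions at -0.32 (adjusted p = 0.165) and Tomm70a, Timm17b and Timm9 of the import machinery at -0.23, -0.17 and -0.31. Of 16 genes for ubiquinone and electron carriers, 13 were negative with a median of -0.090, among them the ubiquinone synthesis genes Coq3 at -0.25, Coq7 at -0.37, Coq9 at -0.13 and Pdss2 at -0.20. Of 12 tricarboxylic acid cycle enzymes, 8 were negative with a median of -0.058, with Cs at -0.17, Fh1 at 0.23, Suclg1 at -0.10 and Mdh2 at -0.084. In these 3 lists, too, 0 genes were called by limma, with 6, 2 and 0 at an unadjusted p under 0.05.

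Among hypoxia-linked regulators of respiration 4 of 12 were negative, with a median of 0.093. Egln3, an oxygen-dependent prolyl hydroxylase of the hypoxia-inducible factors, was the list's called gene. Egln3 fell to 6.49 ± 0.48 in high altitude livers, against 7.63 ± 0.32 in low altitude livers (SD, n = 9 each), a difference of -1.14 ± 0.18 (SE, adjusted p = 0.00545). With its second probe set the difference of Egln3 was -0.59 and no longer passed (adjusted p = 0.0806). The pyruvate dehydrogenase kinases Pdk2, Pdk4 and Pdk1, which hold back carbon flow from glycolysis into mitochondria, had differences of 0.41, 0.68 and 0.44 (adjusted p = 0.181, 0.233 and 0.353).

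**Figure D5:**
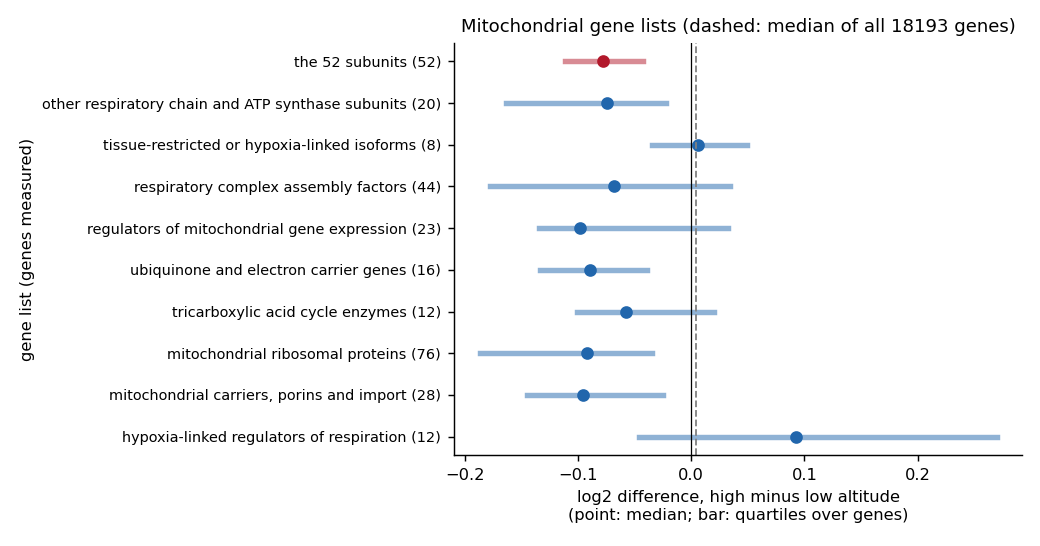
Median (points) and quartiles over genes (bars) of the log2 difference between high and low altitude for the 52 subunit genes and 9 related lists, with the number of genes in brackets. The subunits and 7 of the lists have medians between -0.099 and -0.058, while the isoforms lie at 0.0060 and the hypoxia-linked regulators at 0.093.

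Markers of the cell types of the liver were set beside these values. Hepatocyte markers all lay above the median gene level and were split, 5 of 10 negative with a median difference of 0.0052, and their summed log2 level ran from 129.1 to 131.7 at high altitude and from 127.4 to 132.4 at low altitude. Of 12 Kupffer cell and macrophage markers 0 were negative, with a median of 0.37, although limma called 0, with 5 at an unadjusted p under 0.05. Their summed levels were 106.7 to 122.9 at high altitude and 103.2 to 117.0 at low altitude. The mean level of these 12 markers was 9.88 in high A, 9.15 in high B and 9.43 in high C. It was 9.13, 9.57 and 8.74 in low A, B and C, so low B lay above high B and high C. Of 11 T and NK cell markers 2 were negative and 0 called (6 at an unadjusted p under 0.05), with a median of 0.34, 3 genes above the median gene level, and summed levels of 62.3 to 72.4 at high altitude and 59.0 to 67.2 at low altitude. The mean level of these 11 markers was 6.50 in high A, 5.83 in high B and 5.74 in high C, against 5.68, 5.70 and 5.53 in low A, B and C, so location high A stood apart. Ccl5 and Nkg7 of that list differed between the high altitude locations (adjusted p = 0.00634 and 0.0370 by limma's F test). Of 9 B and plasma cell markers 3 were negative, with a median of 0.069 and summed levels of 57.2 to 63.0 at high altitude and 55.0 to 57.3 at low altitude. Jchain and Ighm, antibody genes, passed in that list with differences of 2.34 and 2.05 (adjusted p = 0.00291 and 0.00763), and the other 7 had differences from -0.15 to 0.29. The size for Ighm depended on the probe set. Its difference was 0.83 with the second probe set (limma adjusted p = 0.0293) and 0.75 with the mean of its probe sets. The call of Ighm ended without location high A or low B, at adjusted p of 0.0579 and 0.0556. Muscle and heart markers, tissues rich in mitochondria, had 0 of 10 genes above the median gene level. RMA gives no value of 0, so none of these markers can be listed as absent, and the part of the cell mixture in the subunit differences was not tested.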

How the data were processed

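Per the labels' protocols, biotin-labelled cRNA was made from the total RNA of each liver and 1 Affymetrix mouse array was run per mouse. The deposited table holds log2 values of 45101 probe sets, which the authors made with RMA in the affy package, per the submitters' processing notes. With versions, scan dates and detection calls not given in the sources used here, no batch by date could be sought. In its usual form RMA subtracts background, equalises the arrays' distributions and summarises probes, so small shifts common to many genes depend on its scaling.

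Gene names came from GEO's platform annotation, with 34945 probe sets naming 1 gene and 64 control probe sets left out. No filter on dim genes was used. Groups were read from the altitude label of each sample and locations from the sample titles. The altitude fit used limma 3.58.1 under R 4.3.3 with location as a random block (consensus correlation 0.00586), eBayes with trend and Benjamini-Hochberg adjustment over 18193 genes at 0.05. A moderated F test compared the 3 locations of each altitude. The mice are separate animals. The procedure was tested on simulated data in which genes were drawn independently, and the altitude fit on data without a location effect. Shifts shared by many genes or by the mice of a location were thus not covered for that fit. Figures were drawn with matplotlib 3.10.9.

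The subunits, the other gene lists and the comparisons were chosen with earlier results of these data known, so no list was tested as a set and no p was adjusted over a list alone. Named genes are those called, those with the smallest p of each complex or list, the most positive of each complex, the 3 with the smallest location p per altitude, and those with a second bright probe set. Ndufa3 and Cox6c among genes with separate location means, and Ndufs1, Ndufa2, Ndufb4, Ccl5 and Nkg7, were named after their values were seen. Alternatives covered scaling, filters, the choice of probe set, the treatment of location and mouse number, moderation, array weights, RNA integrity, and leaving out mice and locations; counts over the 50 brighter subunits were added after seeing the data. No sequences or coordinates are given, since none came with these values.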

Additional observations from a re-analysis of the deposited data

Results flagged for a closer look

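In 114 groups of 9 mice, 4 subunit genes had a single mouse whose gap to its nearest neighbour exceeded 0.493 of the group's range, Dixon's limit for 9 values. Chance gives such a mouse in about 1 in 20 groups. Ndufb5 stood at 11.87 in mouse high C2, with the nearest high altitude mouse at 11.53. Ndufb4 stood at 3.72 in mouse high B2, with the nearest high altitude mouse at 3.92, on a probe set near the floor. Uqcrc1 stood at 10.81 in mouse low A2, with the nearest low altitude mouse at 11.12. Uqcrq stood at 12.84 in mouse low A1, with the nearest low altitude mouse at 12.57. The causes were not tested.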

How the results depend on the processing

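The lean of the subunits towards lower levels at high altitude kept its sign in all alternatives, with medians between -0.12 and -0.051 and between 36 and 47 negative genes. The 50 brighter subunits had 44 negative and a median of -0.078. The single call was less stable. The number of subunits called was 0 in place of 1 after a second quantile normalization, with the mean of all probe sets, with the second probe set, with 1 mean per location, with mouse number as a replicate block, with the Actb measure as a covariate, and without locations high A, high B, low A, low B and low C. It lay between 0 and 1 when single mice were left out, and was 1 only without high C2 or low C1. In those 11 settings without a call Ndufb5 had adjusted p from 0.0587 to 0.412. Over all named genes, 66 were called, against 122 with centring on the brightest genes, 135 with array weights, 28 with the replicate block, 0 with 1 mean per location (1617 at an unadjusted p under 0.05), 30 to 100 without a location and 19 to 84 without a mouse. Location counts were 0 in every alternative run. Among the other lists, the median of the isoforms and that of the tricarboxylic acid cycle changed sign in places, the second to 0.012 without high B.

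The replicate block grouped mice of equal number over all locations. It gave Ndufb5 a difference of -0.39 with a limma adjusted p of 0.0932 and the subunits a median of -0.084. High A4 stood alone in its group, as mouse number 4 occurs once. Mice of equal letter and number correlated above 0.1 in 4 of 8 pairs (median 0.084). Mice of equal number and any letter did so in 5 of 24 (median 0.019), and mice of other numbers in 16 of 57 (median -0.0075). The mice were separate animals from La Paz and from Lima, so the numbers do not pair samples of the same animal. The correlations were not tested.

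Signs of small differences turned. Sdha was 0.011 with quantile normalization, 0.032 with the mean of probe sets, 0.046 with the second, 0.0052 with the replicate block, 0.017 with array weights, 0.030 with the Actb covariate, and 0.053 and 0.064 without high B and low C. Atp5pd was 0.034, 0.020, 0.046 and 0.011 with quantile normalization, the mean of probe sets, the second and the Actb covariate, and 0.0055, 0.029, 0.00041 and 0.011 without high A, high B, low A and low C. Cox5a was -0.0054 with centring on all genes and -0.027 and -0.0028 without high C and low A, and Uqcrfs1 was 0.016 without high B. With single mice left out, Sdha ran from -0.044 to 0.024, Atp5pd from -0.023 to 0.0049 and Cox5a from -0.0082 to 0.048. The causes were not tested. Differences near 0.1 are close to the standard error that 9 arrays per group allow.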
